A study of Arabidopsis thaliana with 4 samples.

Results

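The receptors of root meristem growth factors (RGFs) are a small family of leucine-rich repeat receptor kinases, and their histone marks were examined in Arabidopsis thaliana Col-0. The family is represented here by 5 genes, AT3G24240, AT5G48940, AT1G34110, AT4G26540 and AT5G56040 (synonym SKM2), out of 27444 nuclear protein-coding genes. A called region was counted for a gene when it overlapped the gene body extended by 500 bp at either end. By this rule the 5 genes held 7 of 20264 merged regions of acetylated histone H3 (H3ac) and 6 of 18564 merged regions of histone H3 trimethylated at lysine 4 (H3K4me3). The family was selected on earlier results of these data, namely its region calls and its folds of callus over leaf. These values are therefore given as a description, with no test. Chromatin immunoprecipitation sequencing, in which antibodies recover the DNA bound to a modified histone, was done on mature rosette leaf and on callus. Callus is an unorganised dividing tissue, grown here from leaf explants of seedlings aged 2 weeks that spent 15 days on a callus-inducing medium. The labels call the leaf parental and mature, without an age, and name no treatment for either tissue beyond the medium. The series had 4 libraries, 1 per mark and tissue. Tissue, time on the medium and any difference in age between mature leaf and explants differ together and cannot be told apart, and a mark on more cells cannot be told apart from more mark per cell.

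RGFs, also called GOLVEN peptides, are small secreted peptides that are sulfated on a tyrosine. They bind the extracellular repeats of their receptor kinases, which act with SERK co-receptors and pass the signal through a mitogen-activated protein kinase cascade. In the root tip this pathway keeps the stem cell niche active and sets the gradient of the PLETHORA transcription factors. H3ac and H3K4me3 are both marks found at genes in use. Callus grown on such media is known to resemble a root primordium in its regulators.

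Each tag number below is the number of sequence tags in the 147 bp at a region's centre, with callus scaled to the leaf library by the authors. The authors listed a region as higher in callus at 2-fold or more and a Poisson p of at most 0.01. Tag numbers were given for listed regions only. Total depth is unknown, and the spacing of the tag values gave a callus to leaf depth ratio of 1.37 for H3ac and of 1.02 for H3K4me3. Bracketed ranges are exact 95% intervals from the tag numbers. They cover counting error only and not the spread between plants. Regions entered the list because of a high fold, which the ranges leave out of account. The labelled tissues were set beside marker genes. These genes were chosen with earlier results of these data known, so they are no independent check. Of 9 genes of callus and root stem cells, all had an H3K4me3 region and 8 were listed as higher in callus, and for H3ac 8 had a region and 5 were listed. None of them was called in leaf alone for either mark, a state that was rare over all genes as well. PLT1 and PLT2, which are taken up again below, are among these 9 genes. Of 7 Rubisco and light-harvesting genes, none was listed as higher for either mark. Over all genes with a region, 8.01% were listed for H3K4me3 and 7.03% for H3ac, so none among so few says little. Regions called in leaf alone were found at 4 of the 7 with H3K4me3 and at 1 of the 4 with H3ac, where 2.9% and 3.26% of all genes with a region showed this.

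Marks at the receptors fell into 3 patterns. AT3G24240 and AT5G48940 carried H3K4me3 called in callus alone, with folds of 87.04 and 39.02 in the authors' deposited table. AT1G34110 carried both marks in both tissues, with further H3ac regions in callus and 10.5-fold more H3K4me3 tags at the centre of its long region in the authors' deposited table. AT4G26540 and AT5G56040 carried long merged regions of both marks, joined from calls in callus and in leaf, and neither was listed as higher. In counts, H3K4me3 was called at 5 of 5 receptors and listed as higher in callus at 3 of the 5. Over all genes, 73.3% had an H3K4me3 region and 8.01% of the 20127 with one were listed. H3ac was called at 4 of 5 receptors and listed at 2 of the 4, where 69.2% of all genes had a region and 7.03% of the 18981 with one were listed. Genes between the shortest and the longest receptor in length had similar shares listed, 7.73% for H3ac and 8.08% for H3K4me3. All regions were called in callus alone at 2 of the 5 receptors for H3K4me3, where 3.99% of genes with a region showed this, and at 1 of the 4 for H3ac, where 5.37% did. AT3G24240 and AT1G34110 were listed for both marks, as were 3.18% of the genes with regions of both. No receptor had a region of either mark called in leaf alone, a state that was rare over all genes as well (2.9% for H3K4me3 and 3.26% for H3ac).

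**Figure D1:**
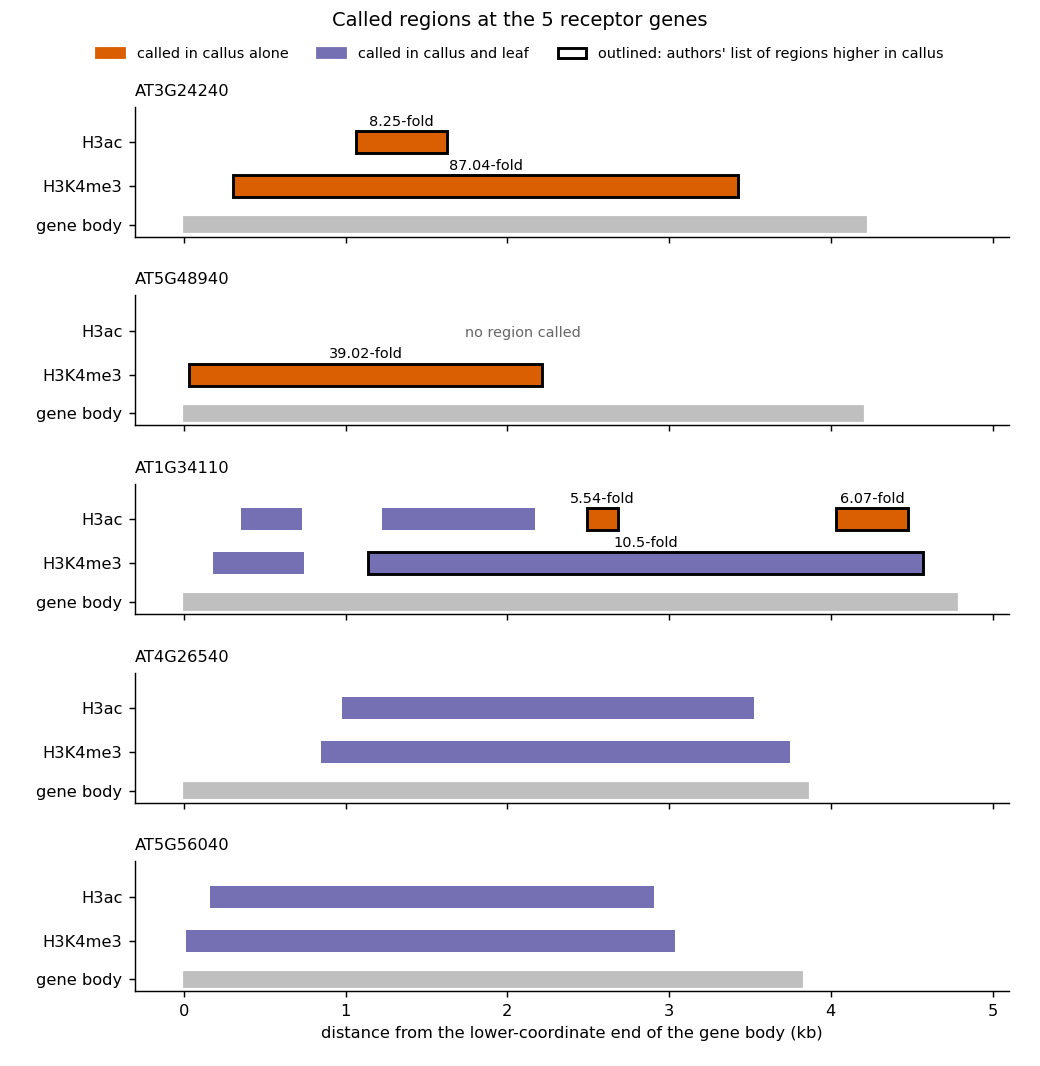
Called H3ac and H3K4me3 regions (bars) along the gene body (grey) of the 5 receptor genes, by distance in kb from the end with the lower coordinate. Orange regions were called in callus alone, purple regions in callus and leaf, and outlined regions were listed by the authors as higher in callus, with the fold above: AT3G24240 and AT5G48940 hold orange H3K4me3 bars, while AT4G26540 and AT5G56040 hold purple bars without an outline.

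AT3G24240 had the largest fold among the receptors. Its H3K4me3 region spanned chr3:8780544-8783664 (TAIR10, as are all positions here) and was called in callus alone. At its centre the authors' deposited table gave 217.6 scaled tags in callus (190 to 248) and 2.5 tags in leaf (0.416 to 8.01). Callus was high and leaf close to 0, and the fold, 87.04 in the authors' deposited table, had an interval of 26.8 to 527. The upper bound is loose since the leaf number is so low. The region lay wholly inside the gene body and covered 74.0% of it. H3ac at this gene was a single shorter region, chr3:8781300-8781863, also called in callus alone and wholly within the H3K4me3 region. There the authors' deposited table gave 41.3 scaled tags in callus (31.2 to 53.6) and 5 tags in leaf (1.62 to 11.7), which is 8.25-fold (3.34 to 26.4). The fold for H3K4me3 was 10.6 times that for H3ac. Both regions were listed for a high fold, so intervals above 1 were fixed by the listing. The centres at which these folds were counted lie 523 bp apart. Among the 590 genes listed for both marks, the H3K4me3 fold was the larger in 65.3%, with a median ratio of 1.28.

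AT5G48940 had H3K4me3 without a called H3ac region. Its H3K4me3 region, chr5:19839698-19841878, was called in callus alone, and the authors' deposited table gave 214.6 scaled callus tags (187 to 245) against 5.5 leaf tags (1.91 to 12.4). The fold was 39.02 in the authors' deposited table (17.1 to 114), again with callus high and leaf low. The region began near the lower-coordinate end of the gene and covered 52.0% of the gene body. The nearest H3ac region lay 1458 bp outside the gene body and was called in both tissues. An H3K4me3 region that was called in both tissues lay 1399 bp outside the gene body. H3ac tags at AT5G48940 are not among the values used here, so the absence of a call does not show that the mark is absent. Genes with H3K4me3 and no H3ac region numbered 1602, and 21.1% of them were listed as higher for H3K4me3.

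AT1G34110 held the largest number of regions among the receptors, 4 for H3ac and 2 for H3K4me3. The long H3K4me3 region, chr1:12418149-12421581, was called in both tissues and still listed as higher. The authors' deposited table gave it 204.8 scaled callus tags (178 to 235) and 19.5 leaf tags (11.8 to 30.3), which is 10.5-fold (6.59 to 17.7). The leaf library therefore had a region called within this merged region, unlike at AT3G24240 and AT5G48940. Callus was far above leaf at the merged centre. Where the leaf call lay within the merged region is not among the values used here. A shorter H3K4me3 region nearer the lower-coordinate end, chr1:12417195-12417758, was called in both tissues and not listed. H3ac was likewise mixed along the gene. The regions chr1:12417366-12417744 and chr1:12418239-12419184 were called in both tissues and not listed, and the latter lies wholly within the long H3K4me3 region. The H3K4me3 tags were counted 1154 bp from the centre of that H3ac region, so whether the marks split at the same place is not shown. The other H3ac regions, chr1:12419504-12419696 and chr1:12421044-12421488, were called in callus alone and listed. At the first of these the authors' deposited table gave 33.2 scaled callus tags (24.3 to 44.4) and 6 leaf tags (2.2 to 13.1), or 5.54-fold (2.36 to 15.9). At the second the authors' deposited table gave 39.4 scaled callus tags (29.6 to 51.4) and 6.5 leaf tags (2.5 to 13.7), or 6.07-fold (2.68 to 16.5). Both callus-alone H3ac regions lay wholly within the long H3K4me3 region, on the side of the gene with the higher coordinates. They scored 41.9 and 95.1 in the authors' deposited table, and both lay in the lowest 25% of H3ac region scores.

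**Figure D2:**
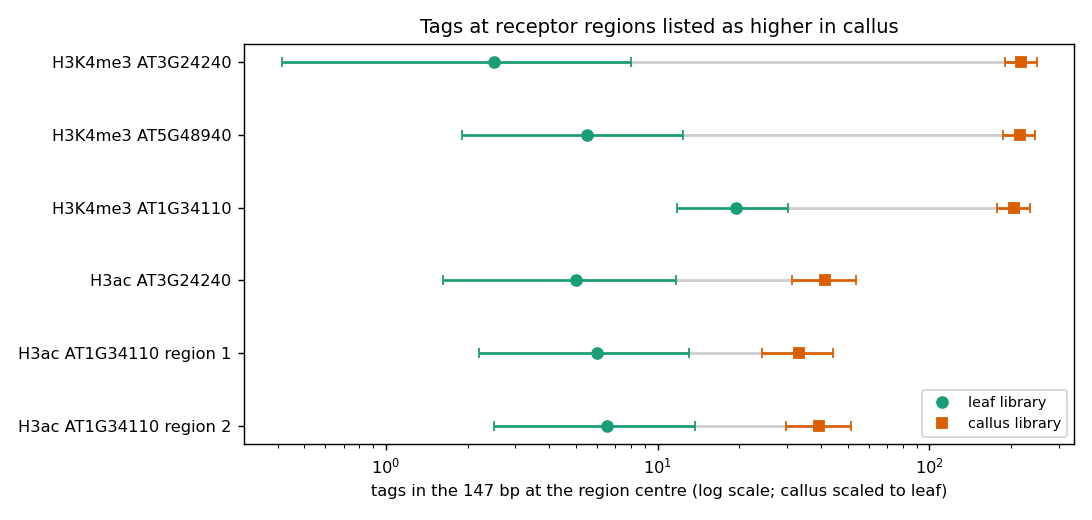
Tags in the 147 bp at the centre of each receptor region listed as higher in callus, on a log axis, with leaf as circles and callus (scaled to leaf) as squares. Bars are exact 95% counting intervals: the 3 callus H3K4me3 values sit close together, from 204.8 to 217.6, while the leaf values run from 2.5 to 19.5.

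The 3 receptors listed for H3K4me3 had close tag numbers in callus and more spread tag numbers in leaf. Their scaled callus tags in the authors' deposited table ran from 204.8 to 217.6, and the ratio of AT1G34110 to AT3G24240 in callus was 0.941 (0.775 to 1.14). In leaf the same ratio was 7.8 (2.12 to 50.6), and that of AT1G34110 to AT5G48940 was 3.55 (1.33 to 11.4). The order of the folds among these receptors thus follows the leaf library. The leaf ratio of AT5G48940 to AT3G24240 was 2.2 (0.418 to 16.9). For H3ac, leaf ratios between the 3 listed regions ran from 1.08 to 1.3 and callus ratios from 0.804 to 1.19, each with an interval that holds 1. The receptors were chosen with these folds known, so the ranges describe counting error and no difference between receptors was tested.

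AT4G26540 and AT5G56040 carried marks of both kinds in both tissues. At AT4G26540 the H3ac region chr4:13395427-13397970 joined 2 regions called in callus with 1 called in leaf, and the H3K4me3 region chr4:13395294-13398196 joined 1 from each tissue. They covered 65.9% and 75.2% of the gene body. At AT5G56040, which is also named STERILITY-REGULATING KINASE MEMBER 2, the H3ac region chr5:22694986-22697730 and the H3K4me3 region chr5:22694835-22697859 each joined 1 region from each tissue. They covered 71.8% and 79.1% of the gene body. The marks lay almost on top of each other, with centres 47 bp apart at AT4G26540 and 11 bp apart at AT5G56040. No tag numbers of these genes were used here. Their absence from the list says that callus was under 2-fold above leaf at the region centre or missed the Poisson criterion, and says nothing on whether callus was lower.

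All 13 regions at the receptors lay wholly inside the gene bodies, so none of them rests on the 500 bp margin, and no other protein-coding gene lay within 500 bp of any of them. The nearest regions outside the margin were at 1399 to 4821 bp for H3K4me3 and at 1458 to 17577 bp for H3ac. The longest H3K4me3 region of each receptor covered between 52.0% of the gene body at AT5G48940 and 79.1% at AT5G56040. H3ac covered less of the gene body than H3K4me3 at every receptor, from 0% at AT5G48940 and 13.4% at AT3G24240 to 41.1% at AT1G34110 and the 2 values above.

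Among all regions listed as higher in callus, the receptor regions had high callus tags for H3K4me3 and middling callus tags for H3ac, with leaf tags below the median for both marks. By fold in the authors' deposited table, AT3G24240 ranked 14 of 1359 H3K4me3 regions, AT5G48940 ranked 32 and AT1G34110 ranked 168. At the centre of the typical listed H3K4me3 region there were 108.3 scaled callus tags and 29.5 leaf tags in the authors' deposited table, as medians. Thus the 3 receptor regions had more callus and fewer leaf tags than the median. Of the 130 listed regions with at least as many callus tags as AT3G24240, itself among them, 2 had as few leaf tags. Of the 138 with at least as many as AT5G48940, again counting itself, 3 had as few leaf tags. For H3ac the ranks by fold were 93 of 1617 for AT3G24240 and 189 and 232 for the regions of AT1G34110. Their callus tags of 33.2 to 41.3 in the authors' deposited table lay near the median of 35.8, and their leaf tags of 5 to 6.5 lay below the median of 12.

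**Figure D3:**
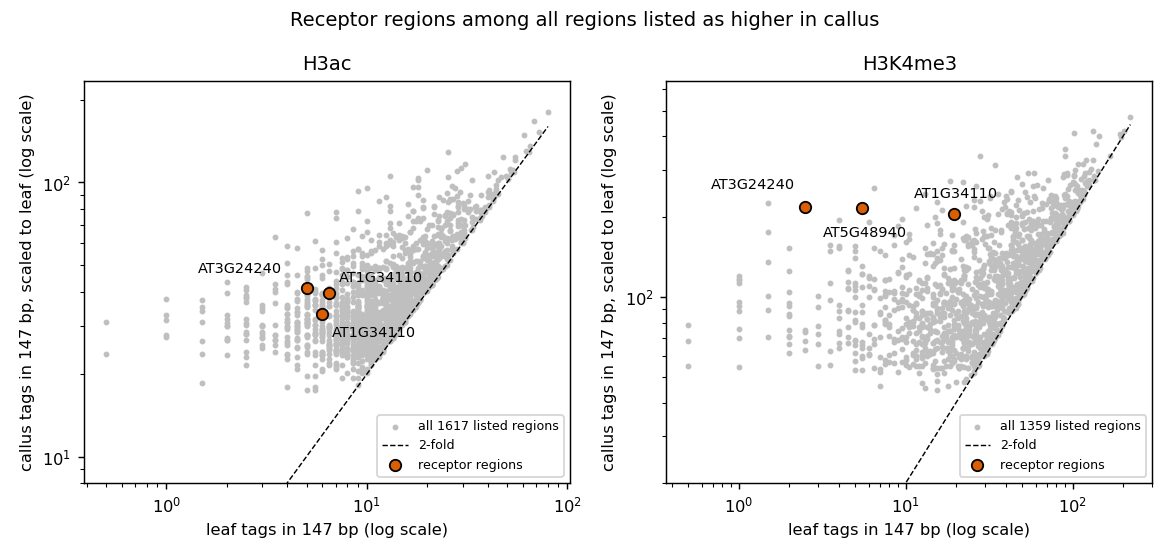
Leaf tags against scaled callus tags at the region centre for every region listed as higher in callus (grey, both axes log), with H3ac on the left and H3K4me3 on the right and the receptor regions in orange. The dashed line marks 2-fold, the lower limit of the list: the H3K4me3 regions of AT3G24240 and AT5G48940 lie at the upper left, with 217.6 and 214.6 callus tags and 2.5 and 5.5 leaf tags.

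The longest region of each receptor was long for H3K4me3, while AT1G34110 also held short regions. Of the 1356 H3K4me3 regions called in callus alone, that of AT3G24240 was the longest, at 3120 bp, and had the highest region score, 1111.9 in the authors' deposited table. The median length of this class was 378.5 bp. The region of AT5G48940 ranked 10 by length, at 2180 bp, and 8 by score, at 760.7 in the authors' deposited table. Score and length go together in these lists, so the ranks are not separate measures. For regions called in both tissues the length is that of the merged region, and the length in each tissue is not known here. Among the 16254 H3K4me3 regions called in both tissues, which had a median length of 1057 bp, the long region of AT1G34110 ranked 22 by length at 3432 bp, that of AT5G56040 ranked 66 at 3024 bp and that of AT4G26540 ranked 92 at 2902 bp. By score AT5G56040 ranked 6 with 1851.65, AT4G26540 ranked 61 with 1490.35 and AT1G34110 ranked 663 with 1047.2 in the authors' deposited table. These scores are merged over callus and leaf, so they describe neither tissue alone. For H3ac the regions of AT5G56040 and AT4G26540 ranked 127 and 187 by length among 15689 called in both tissues. The H3ac region of AT3G24240 was 563 bp long, where callus-alone H3ac regions had a median of 234 bp. The other regions of AT1G34110 were shorter: its second H3K4me3 region had 563 bp and ranked 16360 by length among all 18564, and its H3ac regions had 192 and 444 bp in callus alone and 378 and 945 bp in both tissues, where the median was 836 bp.

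**Figure D4:**
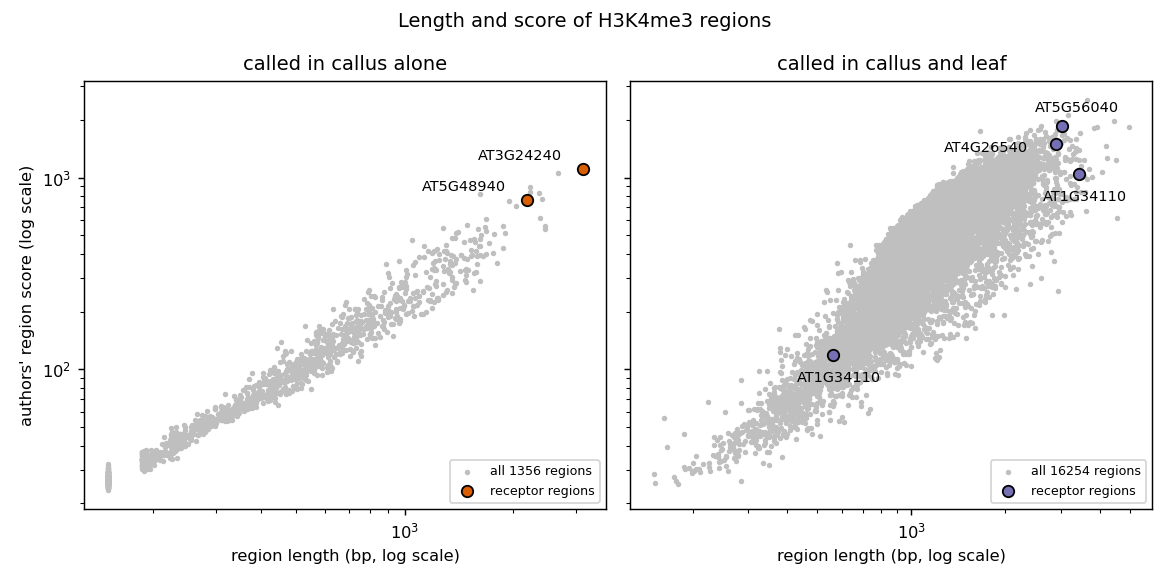
Region length in bp against the authors' region score for H3K4me3 regions called in callus alone (left, 1356 regions) and in both tissues (right, 16254 regions), all axes log, with receptor regions in colour. AT3G24240 sits at the upper right end of the callus-alone regions with 3120 bp and a score of 1111.9, and the short region of AT1G34110 sits low among those called in both tissues.

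Among the ligands, 5 of 9 RGF genes had an H3K4me3 region. Of these, RGF3 (115.2-fold), RGF1 (46.93-fold), RGF4 (33.23-fold) and RGF8 (23.48-fold) were listed as higher in callus in the authors' deposited table, and RGF9 had its region called in leaf alone. H3ac was called at 2 of the 9, RGF3 (27.39-fold) and RGF8 (3.94-fold), both listed in the authors' deposited table. Over all genes with a region, 8.01% were listed for H3K4me3 and 7.03% for H3ac. By deposited fold for H3K4me3, AT3G24240 and AT5G48940 thus lay within the range of the ligand genes, and AT1G34110 below it. The ligand folds rest on few leaf tags, from 1 at RGF3 to 6.5 at RGF8. Their intervals were 20.3 to 4589 at RGF3, 10.6 to 663 at RGF1, 8.86 to 280 at RGF4 and 10.8 to 61.9 at RGF8. The H3K4me3 regions of RGF3, RGF1 and RGF4 scored 156.5, 39.7 and 26.7 in the authors' deposited table. These scores lay in the lowest 25% of H3K4me3 region scores (under 249.35), unlike those of the listed receptor regions. The interval of AT1G34110, 6.59 to 17.7, overlaps those of RGF8, RGF1 and RGF4, so its place below the range is not settled. The list of ligand genes is known from earlier results of these data and is no independent support.

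The genes that make or read the ligand signal mostly carried marks called in both tissues or with mixed calls, as did most genes. Of 16 such genes, 16 had an H3K4me3 region and 3 were listed as higher, and 15 had an H3ac region and 3 were listed as higher. Among all genes with a region, 8.01% were listed for H3K4me3 and 7.03% for H3ac. Calls in both tissues or mixed calls were found at 13 of the 16 for H3K4me3 and 13 of the 15 for H3ac. The same held for 18739 of all 20127 genes with an H3K4me3 region and 17343 of all 18981 with an H3ac region. TPST, the enzyme that sulfates tyrosines of secreted peptides, and S1P, a subtilase that cuts precursors in the secretory pathway, were not listed for either mark. The co-receptor gene SERK1 was listed for H3ac alone, where the authors' deposited table gave 53 scaled callus and 19 leaf tags, or 2.79-fold (1.66 to 4.9). The co-receptor genes SERK2, BAK1 and SERK4 and the kinase genes YDA, MKK4, MKK5, MPK3 and MPK6 of the cascade were not listed for either mark, and each had H3ac and H3K4me3 called in callus and leaf alike. UBP12 and UBP13, which encode ubiquitin proteases known to stabilise an RGF receptor, were not listed either. TPST and UBP13 each had an unlisted 150 bp H3ac region called in callus alone, beside an H3ac region called in both tissues. SERK1 had a further unlisted H3ac region of 200 bp called in callus alone. At the far end of the pathway PLT1 and PLT2, the PLETHORA genes of the root stem cell niche, were listed for both marks. Both are also among the marker genes above. The authors' deposited table gave PLT1 25.16-fold and PLT2 23.72-fold for H3K4me3, with lower bounds of 10.0 and 10.3. For H3ac the authors' deposited table gave 7.4-fold and 6.65-fold, with lower bounds of 2.68 and 2.52. These are the largest regions by fold. The authors' deposited table also held smaller folds, 4.13 for H3K4me3 and 2.04 (1.1 to 4.01) for H3ac at PLT2 and 3.5 (1.53 to 9.36) for H3ac at PLT1. AT2G12646, which has no symbol in the gene table, had 88.6 scaled callus tags and 1 leaf tag for H3K4me3, or 88.61-fold in the authors' deposited table. The interval ran from 15.5 to 3538, and no H3ac region was called there.

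**Figure D5:**
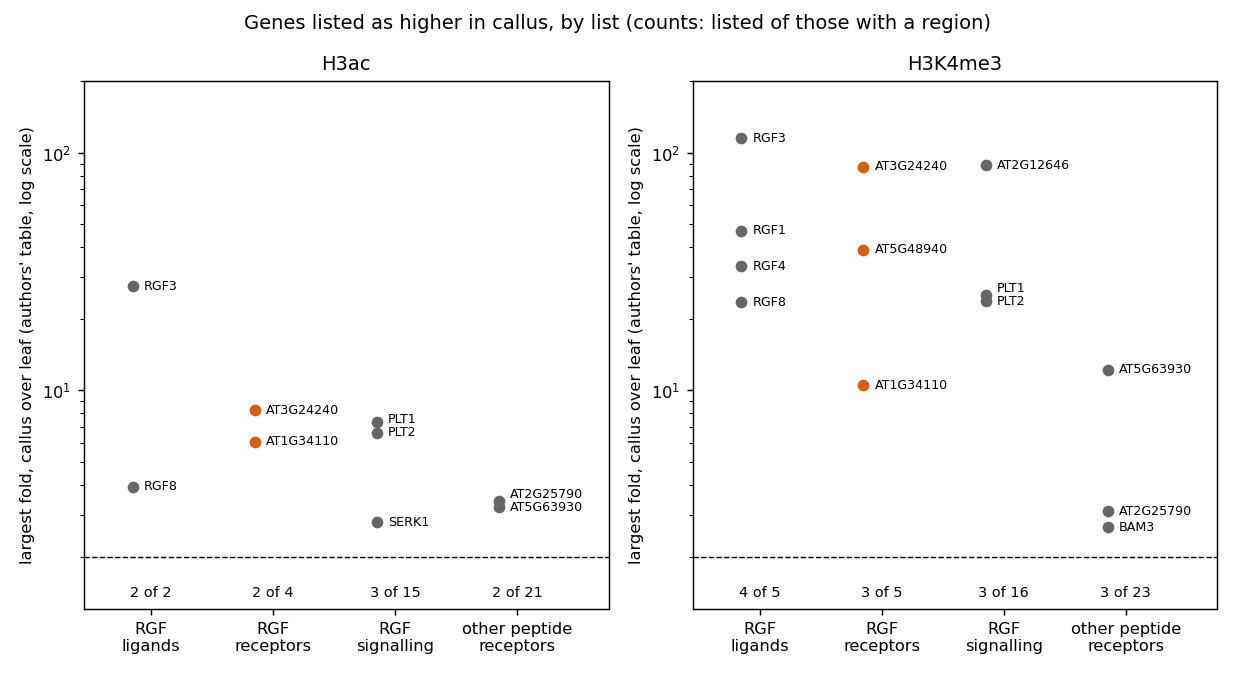
Largest fold of callus over leaf per gene in the authors' table, on a log axis, for the genes listed as higher in callus among RGF ligands, RGF receptors (orange), RGF signalling genes and other peptide receptors. Counts at the foot give genes listed of those with a region (receptors: 2 of 4 for H3ac and 3 of 5 for H3K4me3), and the dashed line marks the lower limit of 2-fold.

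A list of 24 other leucine-rich repeat peptide receptor genes shows the range of patterns in genes of similar build. H3K4me3 was called at 23 of them and listed as higher at 3, and H3ac was called at 21 and listed at 2. At 4-fold or more there remained 1 for H3K4me3 and 0 for H3ac, beside 3 and 2 among the RGF receptors and 3.16% and 1.78% of all genes with a region. No test of the difference between the lists was made, since the RGF receptors were chosen with these values known. The longest H3K4me3 region per gene had a median of 1772 bp in the other receptors (340 to 3366 bp) and of 3024 bp in the RGF receptors (2180 to 3432 bp), so the ranges overlap. Each receptor was set beside the other receptors with the same calls and listing in both marks, ranked by the summed difference in log2 region score. AT3G24240 had 1 such gene, AT2G25790 (synonym SKM1), with a summed difference of 1.16. In the authors' deposited table AT2G25790 had 3.1-fold (2.13 to 4.62) for H3K4me3 and at most 3.43-fold (2 to 6.24) for H3ac. For AT3G24240 the H3K4me3 interval was 26.8 to 527. A difference between these genes was not tested, since AT3G24240 was chosen with its fold known. AT4G26540 and AT5G56040 each had 15 such genes. The nearest to AT4G26540 were CLV1, the CLAVATA3 receptor of the shoot meristem (0.47), and AT1G09970, whose synonym is RLK7 (0.72). The nearest to AT5G56040 were HSL1 (0.22) and HAE (0.46), the latter a receptor of floral organ shedding. No other receptor on the list had exactly the calls and listing of AT5G48940 or of AT1G34110. AT5G63930 came close to AT1G34110, with unlisted regions of both marks called in both tissues and listed regions of both marks. Its listed H3K4me3 region, 12.2-fold in the authors' deposited table, was called in callus alone, unlike that of AT1G34110.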

How the data were processed

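The region tables that the authors deposited for H3ac and H3K4me3 were used. Per the submitters' processing notes the TAIR10 build was used with HOMER 4.10.4, Bowtie2 2.3.4.3 and SAMtools 1.11, without a role for each. How reads that map to more than 1 place were handled was not given in the sources used here, and sharing of reads between similar receptor genes was not tested. Per the file headers, HOMER's mergePeaks joined regions called per library, and a region score was deposited with each. The tag signal at region centres was deposited with callus scaled to leaf, and the fold is the deposited ratio of both. No input library enters the tables. The deposited p takes the leaf number as exact, so none is printed.

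Callus tags were unscaled by the spacing of the values (0.3652 for H3ac and 0.4923 for H3K4me3, against 0.5 in leaf). At a tolerance of 0.05, 99.5% and 100% of values under 60 tags lay on it. A tag was taken as 1 read. Intervals are exact conditional (Clopper-Pearson form) for folds and exact Poisson for tags (SciPy 1.17.1, Python 3.11.15), tested on simulated data. PCR copies are not independent molecules.

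Genes came from the RefSeq table of TAIR10.1, which gives no strand. Shifting H3K4me3 region centres by up to 4000 bp gave the highest share inside genes (93.4% to 95.1%) at no shift on all 5 chromosomes. Named were the 5 receptors, listed genes that were higher or called in 1 tissue alone, and up to 2 other receptors per member with the same calls; the remaining signalling genes were named after their values were seen. The members and lists were chosen with earlier results of these data known. With 1 library per tissue and mark there was no test. The comparison with genes of the receptors' length was added after the data were seen.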

Additional observations from a re-analysis of the deposited data

How the results depend on the processing

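Of 20 counts of receptors recomputed under the alternatives, 19 stayed within 1.5 times the reported count. The settings covered the gene body alone, a margin of 1000 bp, assignment by region centre, regions above the lowest 25% of scores, a fold of at least 4, and intervals above 2. The 8 counts with another margin and the counts assigned by region centre could not move, since all 13 regions lie inside the gene bodies and the next lies 1399 bp away. Their agreement is thus no sign of robustness. The exception was the count of receptors listed for H3ac, which was 1 in place of 2 when regions in the lowest 25% of scores (under 110.4) were left out, because both listed regions of AT1G34110 score lower. With 0.5 tags as 1 read the 6 deposited folds stay as they are by construction, and their intervals were narrower: 37.0 to 269 for H3K4me3 at AT3G24240, 21.6 to 78.7 at AT5G48940 and 7.55 to 15.0 at AT1G34110. No paired analysis was possible because each tissue and mark has 1 library. Leaving out a library was not possible for the same reason. Tags were few for H3ac, with 5 to 6.5 leaf tags at the listed receptor regions, and at AT3G24240 the H3K4me3 fold rests on 2.5 leaf tags, so the upper bounds there are loose.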

Other observations

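Besides AT2G25790, other peptide receptor genes had regions that differed in call between the tissues. AT5G63930, which has no symbol in the gene table, had an H3K4me3 region called in callus alone with 189 scaled callus and 15.5 leaf tags, or 12.2-fold (7.27 to 22.0), in the authors' deposited table. Its H3ac region in the same part of the gene was also called in callus alone, with 42 scaled callus and 13 leaf tags, or 3.23-fold (1.75 to 6.43), in the authors' deposited table. A further region of each mark at this gene was called in both tissues and not listed. BAM3, a CLE peptide receptor of the root phloem, had an H3K4me3 region called in callus alone with 103.9 scaled callus and 39 leaf tags, or 2.66-fold (1.83 to 3.95), in the authors' deposited table. In the other direction, GSO1, a receptor for peptides that complete the root barrier, had its single H3ac region called in leaf alone, 361 bp long. PEPR2, a receptor of danger peptides, and AT1G17230 each had a short H3ac region called in leaf alone, of 190 and 150 bp, beside regions called in both tissues. A call in leaf alone carries no tag numbers here and is no test of a difference.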
